A study of Mus musculus with 6 samples.

Results

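Chemokine ligand and receptor genes were followed in mouse thymus 24 h after irradiation. Members were taken by symbol from the mRNA table: every gene named Ccl, Cxcl, Cx3cl, Xcl, Ccr, Cxcr, Cx3cr, Xcr or Ackr with a number, apart from 8 symbols of thymic homing genes (Ccr9, Ccr7, Ccr4, Cxcr4, Ccl25, Ccl21a, Ccl19 and Cxcl12). This gave 58 genes under 55 symbols, of 21954 genes in the table, with 39 ligands and 19 receptors. The control group was 3 unexposed C57BL mice, and the irradiated group was 3 C57BL mice given X-rays at a dose of 6 Gy and killed 24 h later. All were wild type and 5 weeks old. Whole frozen thymus tissue was extracted with TRIzol, and the polyadenylated RNA was sequenced. The libraries were numbered 1 to 3 within each group, and since the labels do not tie a library to an animal, p-values cover only the spread among these libraries.

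Chemokines are small secreted or membrane-anchored proteins that direct the movement of leukocytes along gradients. They bind receptors that span the membrane and signal through G proteins of the Gi class, while atypical receptors bind chemokines without that signalling and remove, transport or present them. In the thymus, homing chemokines bring in precursors and guide thymocytes between cortex and medulla, and inflammatory chemokines are known for recruiting monocytes, neutrophils and effector lymphocytes into injured tissue.

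Abundance was deposited as FPKM, a fragment count divided by transcript length and by sequencing depth, so that levels can be compared between genes. A fragment in 1 kb of transcript was worth 0.0391 to 0.0456 FPKM, so values near that size rest on few fragments, and such precision covers counting error only. The control libraries held the thymocyte genes that define the tissue: 8 markers, Rag1, Rag2, Dntt, Ptcra, Cd8a, Cd8b1, Cd4 and Cd3e, summed to 1650 to 1923 FPKM, against 88.6 to 137 FPKM in irradiated libraries. In whole tissue, fewer cells of a type and less RNA per cell cannot be told apart, and each difference below is one of relative abundance in the remaining RNA. The irradiated libraries also differed from each other in genes of other tissues. Summed airway epithelial markers (5 genes) were 45.3, 3041 and 44.7 FPKM in irradiated replicates 1, 2 and 3, against 3.28 to 4.06 FPKM in controls. Summed red blood cell markers (5 genes) were 1.16, 7362 and 1197 FPKM, against 51.2 to 139 FPKM, and summed fat cell markers (5 genes) were 76.0, 1452 and 611 FPKM, against 16.2 to 48.1 FPKM.

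Most measurable chemokine genes were more abundant in irradiated thymus, and none was called lower. Of the 58 genes, 47 averaged at least 0.5 FPKM over the 6 libraries and were tested with limma on log2(FPKM + 0.1). At a Benjamini-Hochberg adjusted p under 0.05 over all genes, 31 of the 47 were higher in irradiated thymus (66.0%), 0 were lower and 16 did not pass. At an unadjusted p under 0.05 limma gave 36 higher and 0 lower, and the authors' deposited table gave 36 higher and 0 lower among the 58 (32.5% and 14% of its genes). Among all 14001 tested genes, 42.4% were called higher and 20.9% lower. The counts of each role group and gene list below are to be read beside these shares. The irradiated libraries lay above all controls for 33 of the 47 members, against 46.1% of all tested genes, and below all controls for 0, against 24.7%. The median log2 fold change, irradiated minus control, was 2.17 over the tested members and 0.40 over all tested genes. Of the 47, 12 passed the filter only through their irradiated values and so had to differ. They were Ccl3, Ccl4, Ccl7, Ccl24, Ccl21c, Cxcl1, Cxcl2, Cxcl3, Cxcl5, Cxcl17, Cxcr2 and Ackr1. Among the 35 members averaging at least 0.5 FPKM in controls, 22 were higher (62.9%), against 36.9% of all such genes, of which 23.6% were lower, with a median of 2.12 against 0.20. After quantile normalization, which moved the median of all genes to -0.07, 17 members were higher and 4 lower (25% and 31.4% of all genes), and the lower 4 were Ccr6, Ccr8, Cxcr5 and Xcr1. Over the 4 scalings, the median of the members lay 1.46 to 1.81 above the all-gene median. Other settings gave 27 members higher after median-ratio scaling (33.2% of all genes), 33 with equal summed FPKM (39.4%), 31 with a pseudocount of 0.01 (42.5%), 28 with a pseudocount of 1 (41%), 32 of 57 without a filter (35.7%), 25 with at least 1 FPKM in 3 libraries (41.2%), 32 without the abundance trend (41.3%) and 32 with a replicate block (40.7%). Leaving out control replicates 1, 2 and 3 gave 26, 25 and 25 (35.2%, 34.8% and 36.6%), and leaving out irradiated replicates 1, 2 and 3 gave 36, 28 and 26 (48.3%, 37.3% and 37.7%).

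Summed over the 39 ligands, the level was 68.8, 72.7 and 82.6 FPKM in the controls and 291, 683 and 1067 FPKM in irradiated replicates 1, 2 and 3. The group means were 74.7 ± 7.08 and 680 ± 388 FPKM (SD, n = 3 each), a ratio of 9.11 (exact permutation test, two-sided, p = 0.1, the smallest that 3 against 3 libraries allow). The sum of the 19 receptors was 18.1, 18.8 and 19.9 FPKM in unexposed thymus and 41.2, 93.1 and 86.2 FPKM after irradiation, a ratio of 3.88 with the same exact permutation p of 0.1. Neither sum overlapped between the groups. Averages of 5 FPKM or more were reached by 4 members in controls and by 23 in irradiated thymus. The plot of log2 fold changes by role shows values above 4 for Cxcl17 and for the inflammatory ligands Ccl6, Ccl8, Ccl7 and Ccl9, and several lymphocyte receptors near no change.

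**Figure D1:**
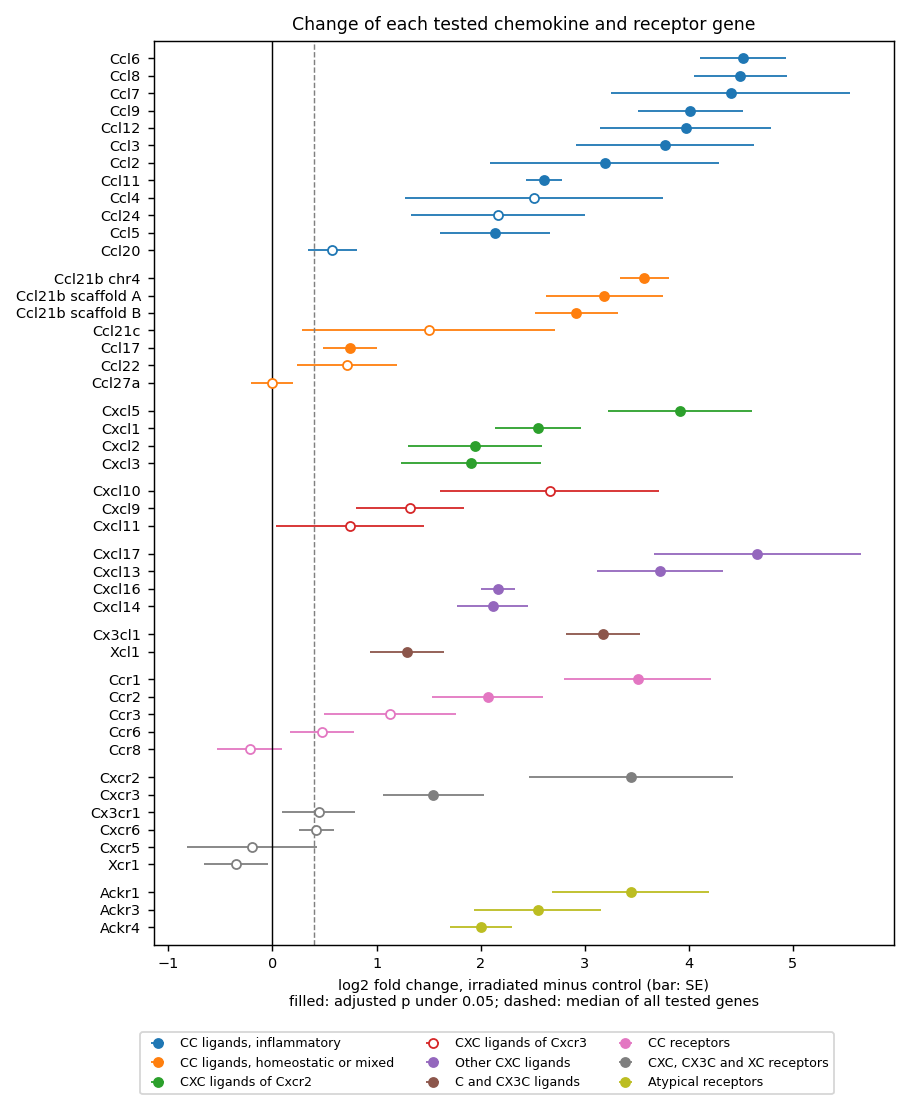
Log2 fold change of 46 tested genes (irradiated minus control, x axis; bars are SE), grouped by role, with filled points where the limma adjusted p was under 0.05 and a dashed line at 0.40, the median of all tested genes. The 30 filled points all lie right of zero, and the values run from -0.35 (Xcr1) to 4.66 (Cxcl17).

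Inflammatory CC ligands, which attract monocytes, macrophages, eosinophils and effector T cells, made up the largest role group. Of 13 genes, 12 were tested, 9 rose and 3 did not pass. Among the tested genes Ccl3 and Ccl7, both called, and Ccl4 and Ccl24 passed the filter only through their irradiated values and so had to differ. The summed level of the group went from 26.3 to 33.3 FPKM in controls to 170, 431 and 669 FPKM in irradiated replicates 1, 2 and 3. Ccl6 (ENSMUSG00000018927, chr11:83587882-83593087 in GRCm38), a ligand of Ccr1 made by myeloid cells, measured 3.02, 4.48 and 5.32 FPKM in control replicates 1, 2 and 3 and 51.7, 115 and 156 FPKM in irradiated replicates 1, 2 and 3. The lowest irradiated library lay far above the highest control, and the log2 fold change was 4.52 ± 0.41 (SE, adjusted p = 0.000172 by limma). Ccl8 (ENSMUSG00000009185, chr11:82115185-82116799), a ligand of mouse Ccr8, measured 3.04, 5.80 and 3.97 FPKM in controls and 46.5, 137 and 135 FPKM after irradiation, again without overlap. Its log2 fold change was 4.49 ± 0.45 (SE, adjusted p = 0.00023 by limma). These genes had the highest irradiated means of all members, 108 ± 52.5 FPKM for Ccl6 and 106 ± 51.6 FPKM for Ccl8 (SD, n = 3).

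Ccl5 (chr11:83525778-83530518), which attracts T cells and monocytes and binds Ccr1, had the highest control mean of all members. Its values were 10.7, 11.7 and 9.83 FPKM in controls and 18.4, 76.9 and 75.6 FPKM after irradiation, so irradiated replicate 1 stood close to the controls and the other irradiated libraries far above them. The log2 fold change was 2.14 ± 0.53 (SE, adjusted p = 0.0102 by limma). Ccl9 (chr11:83572919-83578636), a Ccr1 ligand of macrophages and dendritic cells, measured 1.40, 1.45 and 2.38 FPKM and then 12.9, 34.7 and 53.6 FPKM, a log2 fold change of 4.01 ± 0.50 (adjusted p = 0.000577). A more even response was that of Ccl11 (chr11:82057823-82062955), eotaxin, the eosinophil attractant that binds Ccr3. It measured 4.45, 4.27 and 5.49 FPKM in controls and 25.1, 29.1 and 34.1 FPKM after irradiation, and its highest irradiated value was 1.36 times its lowest. With a log2 fold change of 2.61 ± 0.17 it had the smallest limma adjusted p in the group, 6.57e-05.

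The monocyte attractants of Ccr2 were among the most uneven genes. Ccl2, the main recruiter of inflammatory monocytes, measured 0.514, 1.03 and 0.840 FPKM in controls and 1.5, 6.39 and 47.9 FPKM after irradiation. Ccl7, its close relative, measured 0.512, 0.240 and 0.677 FPKM and then 2.13, 9.13 and 73.8 FPKM. Ccl12, a further Ccr2 ligand of the mouse, measured 0.569, 1.01 and 1.97 FPKM and then 6.76, 12.9 and 65.7 FPKM. All 3 genes were lowest in irradiated replicate 1 and highest in irradiated replicate 3, which exceeded replicate 1 by 31.9, 34.6 and 9.71 times, and none overlapped the controls. The log2 fold changes were 3.19 ± 1.1 for Ccl2 (limma adjusted p = 0.0375), 4.40 ± 1.15 for Ccl7 (0.0129) and 3.97 ± 0.82 for Ccl12 (0.00485). The call for Ccl2 was lost without any 1 of the controls or without irradiated replicate 2 (adjusted p between 0.0701 and 0.11), with a pseudocount of 1 (0.0632), without a filter (0.0524), without the trend (0.0527) and under quantile normalization (0.163, the highest of all alternatives). Summed monocyte markers (Ly6c2, F13a1, Chil3, Plac8 and Vcan, 3 of 5 higher) were 82.7 to 107 FPKM in controls and 95.6, 349 and 269 FPKM in irradiated replicates 1, 2 and 3, and their part in these ligand values was not tested. Quantile normalization also ended the calls for Ccl7 (0.0533) and Ccl3 (0.0675).

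Ccl3, a macrophage inflammatory protein that binds Ccr1, measured 0.234, 0 and 0.208 FPKM in controls and 1.03, 2.31 and 9.60 FPKM after irradiation, a log2 fold change of 3.77 ± 0.85 (limma adjusted p = 0.00716). Its neighbour Ccl4, another macrophage inflammatory protein, measured 0.102, 0.479 and 0.204 FPKM and then 0.155, 2.53 and 9.77 FPKM. Irradiated replicate 1 fell among the controls for Ccl4, and the log2 fold change of 2.51 ± 1.24 did not pass (adjusted p = 0.114). Ccl24, another eotaxin, was at 2.17 (adjusted p = 0.0548), and Ccl20, the Ccr6 ligand of epithelia, at 0.58 (0.0635). Without irradiated replicate 1, Ccl4 (3.95, adjusted p = 0.0013) and Ccl24 (3.15, adjusted p = 0.000415) passed, and Ccl20 passed without irradiated replicate 2 (0.72, adjusted p = 0.0404) or without the trend (0.0393). Ccl24 also passed with equal summed FPKM (0.0432) and the replicate block (0.0209), and in the authors' deposited table Ccl4 (3.69, DESeq2 adjusted p = 0.00263) and Ccl24 (2.56, DESeq2 adjusted p = 0.00566) passed. Over all alternatives the adjusted p ran from 0.0013 to 0.434 for Ccl4, from 0.000415 to 0.439 for Ccl24 and from 0.0393 to 0.683 for Ccl20. Ccl26 was listed at 0 in all 6 libraries.

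**Figure D2:**
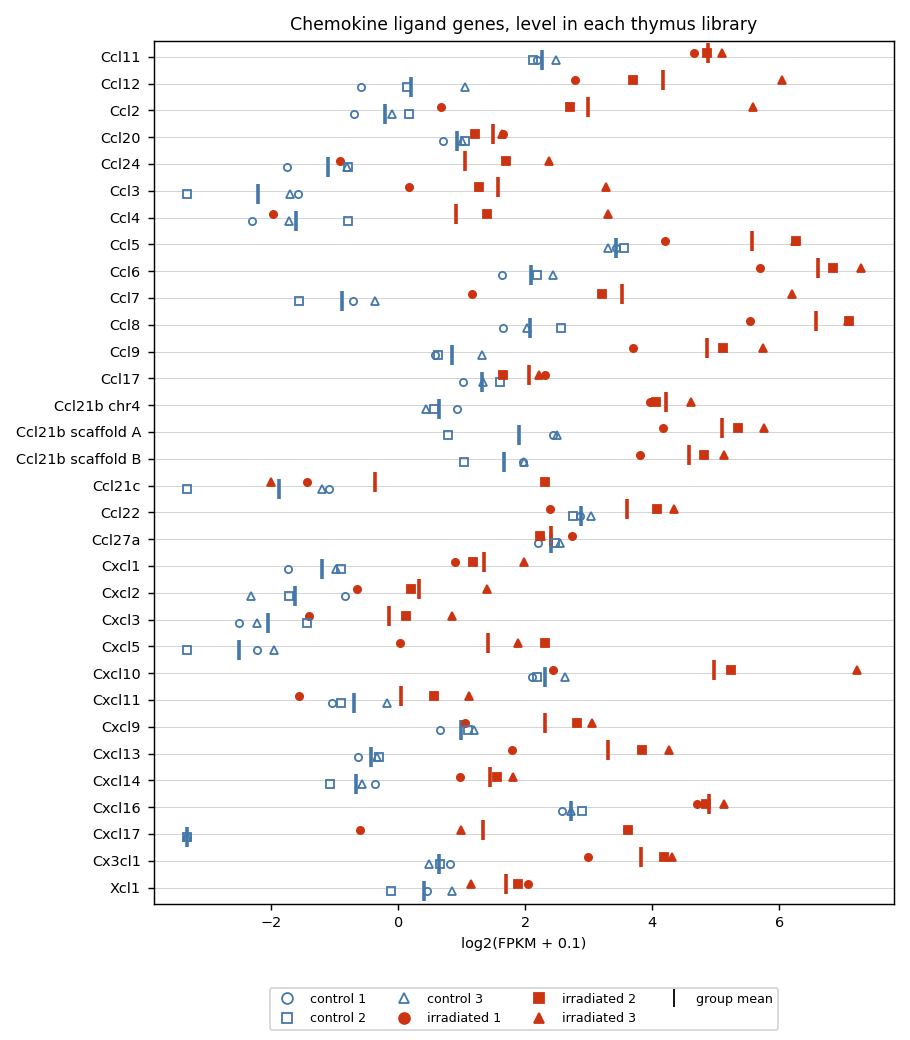
Level of each of the 32 tested ligand genes on the log2(FPKM + 0.1) scale (x axis) in every library, with open blue symbols for controls, filled red symbols for irradiated thymus and vertical ticks at group means. Irradiated replicate 1 (red circles) is the lowest irradiated library for most genes, as for Ccl2, Ccl5 and Cxcl10.

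CXC ligands of Cxcr2, the neutrophil attractants, were near the detection limit in controls and low after irradiation. All 4 tested genes rose, and their family of 5 summed to 0.850 to 0.928 FPKM in controls and to 3.59, 9.21 and 11.7 FPKM in irradiated replicates 1, 2 and 3. Cxcl5 (chr5:90759360-90761624) measured 0.113, 0 and 0.157 FPKM in controls and 0.920, 4.87 and 3.60 FPKM after irradiation, a log2 fold change of 3.91 ± 0.69 (SE, adjusted p = 0.00241 by limma). Cxcl1 (chr5:90891241-90893115) measured 0.201, 0.436 and 0.409 FPKM and then 1.75, 2.16 and 3.84 FPKM, a log2 fold change of 2.55 ± 0.41 (adjusted p = 0.00162). For both, the lowest irradiated library stood clear of the controls. Cxcl2 measured 0.459, 0.202 and 0.101 FPKM and then 0.541, 1.05 and 2.54 FPKM, and Cxcl3 measured 0.0768, 0.271 and 0.113 FPKM and then 0.278, 0.987 and 1.70 FPKM. In both the highest control almost reached the lowest irradiated library, with log2 fold changes of 1.95 (adjusted p = 0.0318) and 1.91 (0.0406). All 4 passed the filter only through their irradiated values. The Cxcl2 call was lost when control replicate 2, control replicate 3 or irradiated replicate 2 was left out (adjusted p of 0.06 to 0.103), and that of Cxcl3 without any 1 of the controls (0.0588 to 0.12). Both calls were also lost with median-ratio scaling (0.0532 and 0.0588) and a pseudocount of 1 (0.0541 and 0.0633), that of Cxcl2 with the replicate block (0.073) and that of Cxcl3 in the authors' deposited table (DESeq2 adjusted p = 0.0586). After quantile normalization, where their adjusted p were the highest of all alternatives, Cxcl1 (1.08, 0.0764), Cxcl2 (0.35, 0.663) and Cxcl3 (0.29, 0.697) did not pass either.

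Promoter sequence is shown for the neighbours Cxcl1, Cxcl2 and Cxcl3, whose windows carry the same binding motif of NF-kappaB, a transcription factor of inflammatory signalling. RefSeq promoter windows of GRCm38.p6, 250 bases before to 50 after the start of transcription, were matched to 38 members (44 windows). The NF-kappaB motif, searched by its usual degenerate form on both strands, was found in 22.7% of member windows and in 4.51% of 32851 windows of all genes. The windows with a match belonged to Ackr2, Ccl20, Ccl27a, Ccl9, Ccr3, Ccr6, Cxcl1, Cxcl10, Cxcl2 and Cxcl3. Of these, Ackr2 was not tested, and Ccl9, Cxcl1, Cxcl2 and Cxcl3 were called higher. The last 3 passed the filter only through their irradiated values. Calls were higher for 66.0% of all tested members and 42.4% of all tested genes, and the part of the motif was not tested. Below, 100 bases of each promoter are given 5′ to 3′, the last of them 31 bases before the start of transcription, and the capitals mark the match.
Cxcl1, chr5:90891115-90891214, plus strand: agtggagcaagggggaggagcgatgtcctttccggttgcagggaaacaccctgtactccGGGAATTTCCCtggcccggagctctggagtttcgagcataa
Cxcl2, chr5:90903769-90903868, plus strand: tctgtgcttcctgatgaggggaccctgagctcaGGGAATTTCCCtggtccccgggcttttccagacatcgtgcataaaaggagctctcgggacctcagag
Cxcl3, chr5:90785971-90786070, plus strand: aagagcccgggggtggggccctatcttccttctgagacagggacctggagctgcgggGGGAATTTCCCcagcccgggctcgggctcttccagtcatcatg
The longest run of bases common to the 3 stretches was the 11 bases of that match, GGGAATTTCCC, in which the degenerate motif matches at overlapping positions on the 2 strands. The match began 71 bases before the start of transcription in Cxcl1, 97 in Cxcl2 and 73 in Cxcl3. A match is a description of these letters, and binding was not measured.

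The interferon-inducible CXC ligands of Cxcr3, which attract effector T cells and natural killer cells, gave 0 calls among 3 genes with limma. GENCODE M21 lists Cxcl11 among them as a polymorphic pseudogene, and whether its RNA gives a working ligand here was not measured. Cxcl10 (ENSMUSG00000034855, chr5:92346638-92348889) measured 4.23, 4.43 and 6.05 FPKM in controls and 5.31, 37.7 and 150 FPKM after irradiation. Irradiated replicate 1 lay within the controls, while replicate 3 held the highest level of any member in any library other than that of Ccl6 in the same library. The log2 fold change was 2.66 ± 1.05 (SE, adjusted p = 0.0599 by limma). Cxcl9 measured 1.48, 2.04 and 2.18 FPKM and then 1.97, 6.91 and 8.23 FPKM (1.32 ± 0.52, adjusted p = 0.0576), and Cxcl11 0.387, 0.438 and 0.788 FPKM and then 0.240, 1.38 and 2.06 FPKM (0.74 ± 0.71, adjusted p = 0.383). All 3 genes split the irradiated libraries the same way. Without irradiated replicate 1 they passed, at 3.93 for Cxcl10 (adjusted p = 0.000398), 1.95 for Cxcl9 (0.000227) and 1.54 for Cxcl11 (0.00927), and over all alternatives the adjusted p ran from 5.7e-05 to 0.142, from 0.000227 to 0.54 and from 0.00927 to 0.818. Cxcl10 and Cxcl9 also passed with equal summed FPKM (0.0463 and 0.0421) and the replicate block (0.0346 and 0.0253). At an unadjusted p under 0.05 with limma, 2 of the 3 were higher. In the authors' deposited table Cxcl10 (3.45, DESeq2 adjusted p = 5.7e-05) and Cxcl9 (1.42, DESeq2 adjusted p = 0.0176) passed.

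The Cxcl10 promoter is shown as the member window with the most kinds of match. The stretch ends 51 bases before the start of transcription, and capitals mark, from the 5′ end, an interferon-stimulated response element (GAAA, any 2 bases, GAAA), a pair of NF-kappaB matches and an AP-1 match (TGANTCA), each searched on both strands.
Cxcl10, chr5:92348940-92349119, minus strand: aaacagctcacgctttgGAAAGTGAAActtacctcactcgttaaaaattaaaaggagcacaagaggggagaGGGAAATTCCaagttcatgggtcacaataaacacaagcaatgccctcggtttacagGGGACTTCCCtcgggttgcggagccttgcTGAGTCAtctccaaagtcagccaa
These matches began 213, 159, 103 and 74 bases before the start of transcription. The interferon-stimulated element was found in 4.55% of member windows (Cxcl10 and Cxcl14) and in 3.44% of all windows, and the AP-1 motif in 20.5% and 7.81%. The STAT motif known as GAS (TTCNNNGAA) was found in 9.09% and 8.3%, and not in the Cxcl10 window.

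The other CXC ligands all rose, 4 of 4. Cxcl16 (ENSMUSG00000018920, chr11:70453983-70459984), a membrane-anchored ligand of Cxcr6 on macrophages, dendritic cells and stroma, measured 5.85, 7.34 and 6.47 FPKM in controls and 26.1, 28.6 and 35.1 FPKM after irradiation. The irradiated libraries agreed within 1.34 times, and the log2 fold change was 2.17 ± 0.16 (SE, adjusted p = 9.83e-05 by limma). Cxcl13 (chr5:95956951-95961068), the B cell attractant that binds Cxcr5, measured 0.545, 0.707 and 0.698 FPKM and then 3.36, 14.3 and 19.1 FPKM, a log2 fold change of 3.72 ± 0.60 (adjusted p = 0.00168). Cxcl14 (chr13:56288643-56296551), made by epithelia and fibroblasts, measured 0.673, 0.376 and 0.573 FPKM and then 1.86, 2.83 and 3.40 FPKM. Its log2 fold change of 2.12 ± 0.34 (adjusted p = 0.00162) dropped to 0.71 (0.107, the highest of all alternatives) after quantile normalization. Cxcl17 (chr7:25400053-25412886), a mucosal ligand known from airway epithelium, was listed at 0 in all controls and measured 0.559, 12.1 and 1.89 FPKM after irradiation. Its fitted log2 fold change of 4.66 (adjusted p = 0.00549) depends on the pseudocount and is no measure of size. The highest Cxcl17 value and the highest summed airway markers, 3041 FPKM, fell in the same library, irradiated replicate 2, and the part of the airway markers (3 of 4 tested higher) in this result was not tested. In irradiated replicates 1 and 3 the airway markers summed to 45.3 and 44.7 FPKM, against 3.28 to 4.06 FPKM in controls. Bpifa1 alone held 40.1 FPKM of the sum in each of these libraries. Both the airway sum and Cxcl17 lay above the controls there too.

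Homeostatic and mixed CC ligands gave 4 calls among 7 tested genes of 12, beside 42.4% of all tested genes. The calls were that of Ccl17, lost in several alternatives given below, and those of 3 gene models named Ccl21b. Ccl21b is a ligand of Ccr7. The model on chromosome 4 (chr4:42255767-42256432) measured 1.81, 1.38 and 1.25 FPKM in controls and 15.5, 16.7 and 24.4 FPKM after irradiation, a log2 fold change of 3.57 ± 0.24 (SE, adjusted p = 6.57e-05 by limma). The models on unplaced scaffolds rose by 3.19 ± 0.56 (adjusted p = 0.00243) and 2.92 ± 0.40 (0.000806). Ccl21 copies are nearly identical, the counting could split their reads, and the 3 values are uncertain as separate measurements. Ccl21c, a further copy, was at 1.5 (adjusted p = 0.308; 3.38 with a DESeq2 adjusted p of 0.0423 in the authors' deposited table), with 4.88 FPKM in irradiated replicate 2 and 0.271 and 0.151 FPKM in replicates 1 and 3. Medullary epithelial markers (Aire, Epcam, Krt5, Krt14, Cldn4 and Fezf2, 6 of 6 higher) summed to 37.1 to 45.0 FPKM in controls and to 171, 323 and 480 FPKM after irradiation. Lymphatic markers (Prox1, Lyve1, Flt4 and Pdpn, 3 of 3 tested higher) summed to 0.241 to 1.24 and 10.9, 34.1 and 58.7 FPKM. Of the latter sum Pdpn held 9.07, 12.4 and 48.9 FPKM in irradiated replicates 1, 2 and 3, and Lyve1 1.08, 17.3 and 5.79 FPKM. The part of either marker list in the Ccl21b values was not tested.

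Ccl17 and Ccl22, neighbours on chromosome 8 that bind Ccr4 and are made by dendritic cells and medullary epithelium, had fold changes under 1 on the log2 scale. Ccl17 measured 1.92, 2.95 and 2.44 FPKM in controls and 4.88, 3.05 and 4.57 FPKM after irradiation, the highest control almost reaching the lowest irradiated library. Its log2 fold change of 0.74 ± 0.26 (limma adjusted p = 0.04) was -0.21 after quantile normalization (0.623, the highest of all alternatives) and lost the call without any library other than irradiated replicate 2 (adjusted p of 0.0509 to 0.131), as it did with median-ratio scaling (0.262), equal summed FPKM (0.0975), no filter (0.0591), the replicate block (0.0844) and in the authors' deposited table (DESeq2 adjusted p = 0.481). Ccl22 measured 7.15, 6.66 and 8.11 FPKM and then 5.13, 16.7 and 20.2 FPKM (0.72 ± 0.48, adjusted p = 0.223). Irradiated replicate 1 was below all controls and the other irradiated libraries above them, and without replicate 1 the change was 1.32 (adjusted p = 0.000209, in a range of 0.000209 to 0.606 over all alternatives). Ccl27a, a skin-homing ligand of Ccr10, measured 5.22 ± 0.641 and 5.26 ± 1.12 FPKM (SD, n = 3), a log2 fold change of -0.003 ± 0.20.

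Both ligands of the smallest families rose. Cx3cl1 (ENSMUSG00000031778, chr8:94772009-94782427), fractalkine, which endothelium and epithelium anchor in the membrane, measured 1.65, 1.47 and 1.30 FPKM in controls and 7.86, 18.0 and 19.7 FPKM after irradiation, a log2 fold change of 3.18 ± 0.35 (SE, adjusted p = 0.000351 by limma). Xcl1 (chr1:164931644-164935527), which attracts cross-presenting dendritic cells through Xcr1, measured 1.28, 0.829 and 1.70 FPKM and then 4.02, 3.60 and 2.11 FPKM. It was among the few members highest in irradiated replicate 1. Its log2 fold change of 1.29 ± 0.35 (adjusted p = 0.0159) lost the call without control replicate 2 (1.04, 0.0568), after median-ratio scaling (0.93, 0.0533), in the authors' deposited table (1.12, DESeq2 adjusted p = 0.117) and after quantile normalization (0.10, 0.828, the highest of all alternatives).

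Of 8 CC receptor genes 6 were tested and 3 rose, a share near the 42.4% of all tested genes. Among them were Ccr1 and Ccr2, which monocytes and macrophages carry. Ccr1 (chr9:123962124-123968692) measured 0.365, 0.516 and 0.742 FPKM and then 2.06, 10.5 and 15.4 FPKM, a log2 fold change of 3.51 ± 0.71 (adjusted p = 0.00429). The groups did not overlap, and irradiated replicate 1 was the lowest irradiated library. Ccr2 (chr9:124101950-124113557), the receptor that inflammatory monocytes need to leave the marrow, had the highest irradiated mean of the class and measured 1.94, 2.43 and 2.40 FPKM and then 4.05, 20.8 and 10.9 FPKM. Its log2 fold change of 2.07 ± 0.53 (adjusted p = 0.0125) dropped to 1.39 (0.0858, the highest of all alternatives) after quantile normalization. Macrophage markers (8 of 8 higher) summed to 115 to 155 FPKM in controls and to 823, 1003 and 1139 FPKM after irradiation, and their part in these receptor values was not tested.

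The remaining CC receptors did not pass. Ccr8, carried by T cell subsets, measured 1.77, 3.06 and 2.91 FPKM in controls and 1.87, 2.99 and 1.76 FPKM after irradiation, with overlapping groups and a log2 fold change of -0.22 ± 0.31. Ccr6, the Ccl20 receptor of lymphocyte and dendritic cell subsets, measured 1.26 ± 0.419 and 1.74 ± 0.241 FPKM (SD, n = 3), a log2 fold change of 0.47 ± 0.31. Ccr3, the eotaxin receptor of eosinophils, was at 1.13 ± 0.64, and passed without irradiated replicate 2 (1.67, limma adjusted p = 0.0436, in a range of 0.0436 to 0.674 over all alternatives). After quantile normalization Ccr8 (-1.34, adjusted p = 0.00832) and Ccr6 (-0.90, adjusted p = 0.0455) were called lower, the lowest adjusted p among the alternatives for both.

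**Figure D3:**
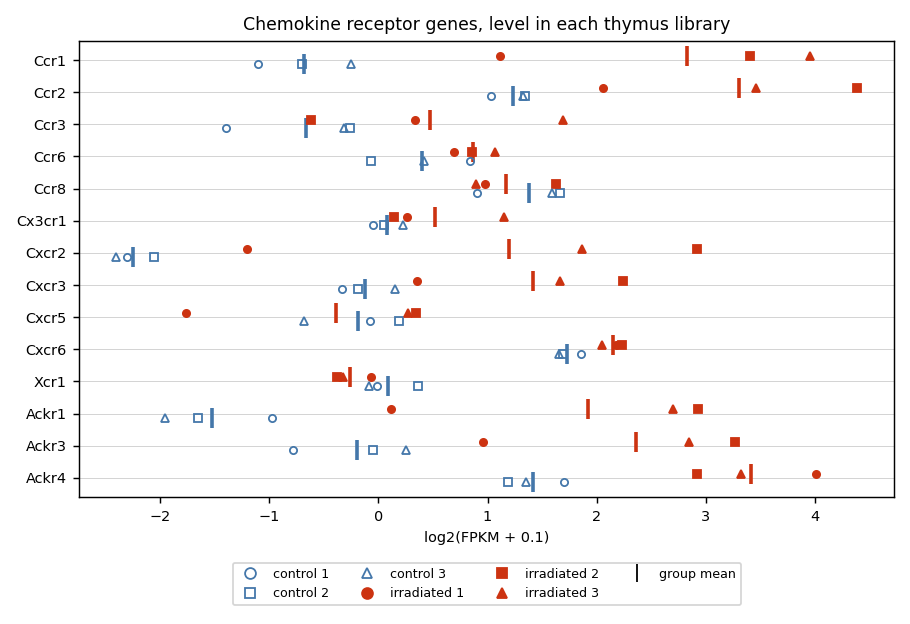
Level of 14 tested receptor genes on the log2(FPKM + 0.1) scale (x axis) in every library, with open blue symbols for controls, filled red symbols for irradiated thymus and vertical ticks at group means. Ccr1, Ccr2, Cxcr2, Cxcr3, Ackr1, Ackr3 and Ackr4 are separated between groups and called, whereas Ccr8, Cxcr5 and Xcr1 overlap.

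Among 7 CXC, CX3C and XC receptors, 6 were tested and 2 rose, no more than the share among all tested genes. Cxcr2 (ENSMUSG00000026180, chr1:74153989-74161246), the receptor of neutrophils for the ligands described above, measured 0.103, 0.141 and 0.0898 FPKM in controls and 0.333, 7.45 and 3.55 FPKM after irradiation. Irradiated replicate 1 was 22.3 times below replicate 2 and still above the controls, and the log2 fold change was 3.44 ± 0.98 (SE, adjusted p = 0.0187 by limma). Cxcr2 passed the filter only through its irradiated values and so had to differ. Cxcr3 (chrX:101731535-101734269), carried by effector T cells and natural killer cells, measured 0.692, 0.780 and 1.01 FPKM and then 1.18, 4.63 and 3.06 FPKM, a log2 fold change of 1.54 ± 0.49 (adjusted p = 0.027). The Cxcr2 call was lost when control replicate 1, control replicate 3 or irradiated replicate 3 was left out (adjusted p of 0.0561 to 0.0646), and the Cxcr3 call without any library other than irradiated replicate 1 (0.0547 to 0.0847). After quantile normalization their adjusted p were 0.108 and 0.618, the highest of all alternatives. Neutrophil markers (2 of 8 higher) summed to 44.4 to 116 FPKM in controls and to 41.9, 411 and 164 FPKM in irradiated replicates 1, 2 and 3, the same order of irradiated libraries as for Cxcr2. Natural killer and cytotoxic markers (3 of 6 tested higher, 1 lower) summed to 39.4 to 53.9 and to 30.9, 36.5 and 37.8 FPKM. The part of either marker list was not tested.

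The other receptors of these classes did not pass. Cxcr6, the Cxcl16 receptor of T cells and innate lymphocytes and the most abundant of them in controls, measured 3.51, 3.12 and 3.05 FPKM and then 4.41, 4.61 and 4.03 FPKM. Its groups did not overlap, but the log2 fold change of 0.42 ± 0.17 missed the threshold (limma adjusted p = 0.063) except without the trend (0.0421). Cx3cr1, the fractalkine receptor of monocytes and macrophages, was at 0.44 ± 0.35 (adjusted p = 0.294), Cxcr5, the Cxcl13 receptor of B cells, at -0.19 ± 0.63 (0.798), and Xcr1 of cross-presenting dendritic cells at -0.35 ± 0.31 (0.344). After quantile normalization Xcr1 (-1.88, adjusted p = 0.00533) and Cxcr5 (-1.66, adjusted p = 0.0276) were called lower, the lowest adjusted p among the alternatives for both.

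All 3 tested atypical receptors rose. Ackr4 (ENSMUSG00000079355, chr9:104084157-104126933), which degrades the thymic homing chemokines and is made by thymic and lymphatic stroma, measured 3.14, 2.18 and 2.45 FPKM in controls and 16.0, 7.45 and 9.86 FPKM after irradiation, highest in irradiated replicate 1. Its log2 fold change was 2.0 ± 0.30 (SE, adjusted p = 0.0012 by limma). Ackr3 (chr1:90203980-90216751), a scavenger of Cxcl12 on stroma and vessels, measured 0.482, 0.866 and 1.09 FPKM and then 1.85, 9.50 and 7.10 FPKM, a log2 fold change of 2.55 ± 0.61 (adjusted p = 0.00908). Ackr1 (chr1:173331886-173333750), the Duffy antigen of red blood cells and venules, measured 0.410, 0.218 and 0.158 FPKM and then 0.984, 7.53 and 6.40 FPKM, a log2 fold change of 3.44 ± 0.75 (adjusted p = 0.00619). After quantile normalization Ackr3 (1.5, adjusted p = 0.0942) and Ackr1 (2.23, adjusted p = 0.0519) missed the threshold, both at the highest adjusted p of all alternatives. Endothelial markers (6 of 7 higher) summed to 31.6 to 41.2 FPKM in controls and to 44.4, 141 and 125 FPKM after irradiation, low in irradiated replicate 1 as Ackr1 and Ackr3 were, and their part was not tested. Red blood cell markers, 0 of 5 higher, were given above, and their part in the Ackr1 values was not tested either. Ackr1 passed the filter only through its irradiated values.

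Many members are neighbours in the genome, so the values were also read by position. In the cluster of chr11:82035571-82305690 that holds Ccl2, Ccl7, Ccl11, Ccl12, Ccl8 and Ccl1, all 5 tested genes rose, by 2.61 to 4.49 on the log2 scale. In the cluster of chr11:83525778-83664683 with Ccl5, Ccl9, Ccl6, Ccl3 and Ccl4, 4 of 5 rose, beside 42.4% of all tested genes. In that of chr5:90759360-90905938 with Cxcl5, Cxcl3, Cxcl15, Cxcl1 and Cxcl2, all 4 tested genes rose. These 4 genes and Ccl7, Ccl3 and Ccl4 passed the filter only through their irradiated values, so their values say nothing of position. Neighbours did not behave alike everywhere. In the receptor cluster on chromosome 9, Ccr1 and Ccr2 rose while Cxcr6, Xcr1 and Ccr3 did not pass. In chr5:92321347-92365485, 0 of 3 passed (Cxcl9, Cxcl10 and Cxcl11), and in chr8:94745590-94812036 Cx3cl1 changed by 3.18 between Ccl22 at 0.72 and Ccl17 at 0.74. Within the Ccl2 to Ccl8 cluster the spread between irradiated libraries also differed, with Ccl11 varying 1.36 times and the adjacent Ccl7 34.6 times.

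**Figure D4:**
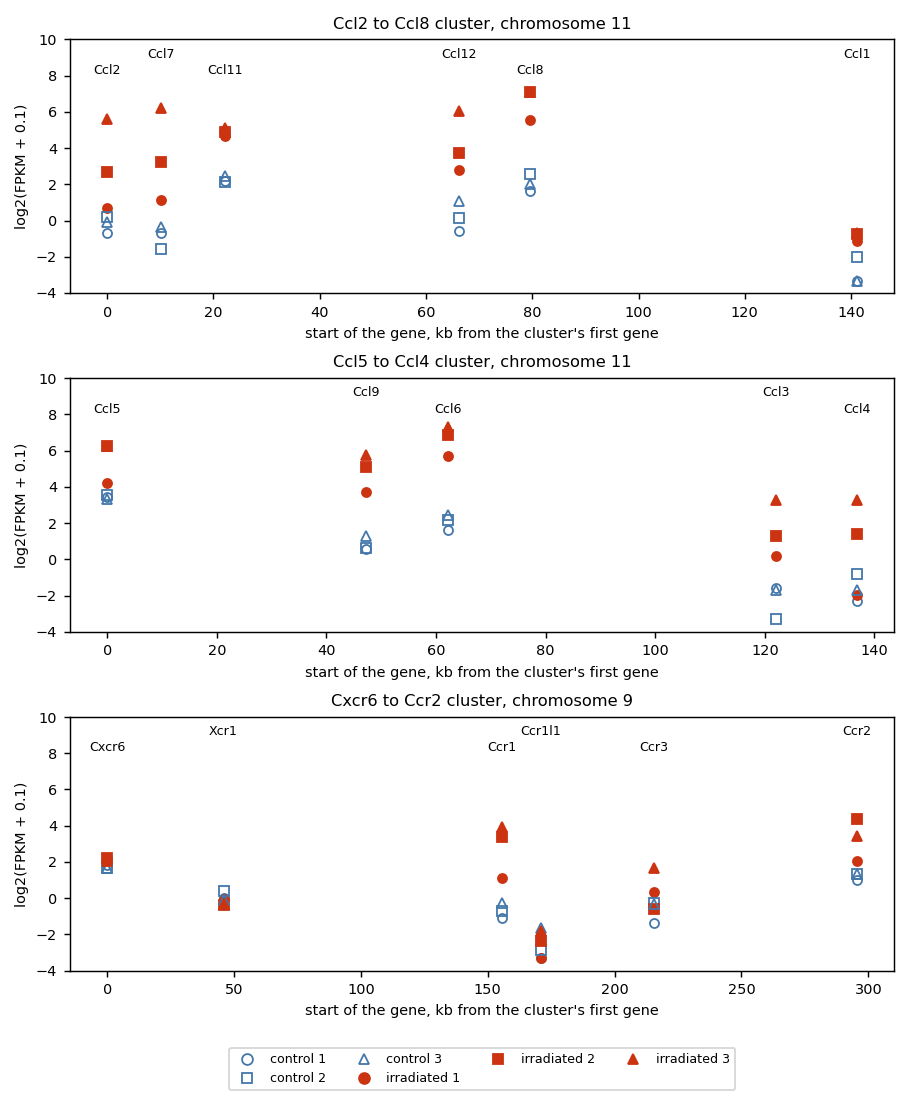
Level on the log2(FPKM + 0.1) scale (y axis) against gene start in kb from the first gene of the cluster (x axis) for 3 clusters, with open blue symbols for controls and filled red symbols for irradiated thymus. In the cluster of Ccl2 to Ccl8 all red symbols of the 5 tested genes lie above the blue ones, while in the receptor cluster Xcr1 and Ccr3 overlap between the groups.

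Ligands and receptors that bind each other were compared within each library as the log2 ratio of ligand to receptor level. Scaling a library by a single factor cannot change this ratio apart from the pseudocount. Quantile normalization can change it, and the ratios were not computed under it. Of 18 pairs, chosen after the values were seen, 8 did not overlap between the groups, all 8 with a higher ratio after irradiation. The share for other pairs of genes was not computed, so the count of 8 only describes these pairs. Each of the 8 had an exact permutation p of 0.1 (two-sided, the smallest possible; 0.225 after Benjamini-Hochberg adjustment over 18 pairs), so none can pass a threshold of 0.05. The largest differences were those of Ccl8 to Ccr8, with a log2 ratio of 0.69 ± 0.24 in controls and 5.41 ± 0.81 after irradiation, and of Cxcl13 to Cxcr5, with -0.23 ± 0.51 and 3.68 ± 0.27 (SD, n = 3). Cx3cl1 to Cx3cr1 went from 0.57 ± 0.30 to 3.31 ± 0.67 and Cxcl16 to Cxcr6 from 1.00 ± 0.25 to 2.74 ± 0.30. The Cxcl13 to Cxcr5 difference of 3.92 was 2.77 with a pseudocount of 1. In these 4 pairs the ligand was called higher and the receptor did not pass.

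Where ligand and receptor were both called higher, 8 pairs, the differences ran from -1.50 for Cxcl2 to Cxcr2 to 2.33 for Ccl7 to Ccr2. Among their genes, Ccl7, Cxcl1, Cxcl2, Cxcl5 and Cxcr2 passed the filter only through their irradiated values, so the filter bears on the ratios that hold them. Of the 8 pairs, 3 did not overlap, Ccl7 to Ccr2, Ccl6 to Ccr1 (1.01, and 1.81 with a pseudocount of 1) and Ccl9 to Ccr1 (0.51, and 1.03 with a pseudocount of 1). The Ccl7 ratio was 2.75 in irradiated replicate 3 against -0.90 and -1.18 in the others, and without replicate 3 the difference was 1.07. The other ligands gave 1.12 for Ccl2 and 1.90 for Ccl12 over Ccr2 (-0.096 and 1.05 without irradiated replicate 3), and -0.89 for Cxcl1 and 0.47 for Cxcl5 over Cxcr2. For the Cxcr2 ligands the irradiated libraries disagreed: Cxcl1 to Cxcr2 was 2.10 in irradiated replicate 1, -1.74 in replicate 2 and 0.11 in replicate 3, against 0.57 to 1.42 in controls.

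**Figure D5:**
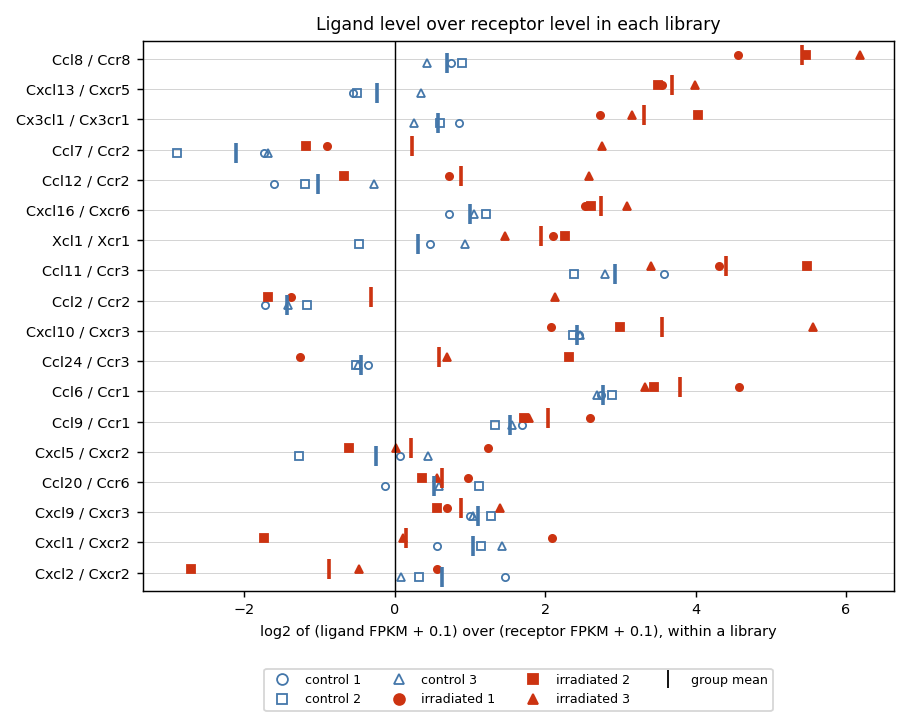
Log2 ratio of ligand to receptor level (FPKM + 0.1 each, x axis) within each library for 18 pairs, with open blue symbols for controls, filled red symbols for irradiated thymus and vertical ticks at group means. The pairs at the top, from Ccl8 with Ccr8 to Ccl7 with Ccr2, are separated toward more ligand.

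The irradiated libraries were not alike in the chemokine genes. Among the 31 genes called higher, irradiated replicate 1 had the lowest irradiated value in 28, while it was lowest in 59.5% of all genes called higher. Replicate 3 had the highest value in 19, replicate 2 in 9 and replicate 1 in 3. The highest irradiated value was 4.19 times the lowest in the median gene, and 4 genes varied over 10 times. Even so, 24 of the 31 calls held in every fit without 1 library that could test them. Through every alternative that could test them 17 calls held, among them those of Ackr4, Ccl11, Ccl12, the 3 Ccl21b models, Ccl5, Ccl6, Ccl8, Ccl9, Ccr1, Cx3cl1, Cxcl13, Cxcl16, Cxcl17 and Cxcl5. Of these, Cxcl17 fell below the filter without irradiated replicate 2, so its call was not put to that omission. Neither Cxcl17 nor Cxcl5 was tested with at least 1 FPKM in 3 libraries.

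A separate table of noncoding transcripts held 33 transcripts of 22 member genes, 22 of them retained introns and 11 processed transcripts of the chemokine genes themselves. Of the 6 genes abundant enough to test, 3 rose, and 15.8% of 9421 genes in that table were called higher and 30.1% lower, with a median of -0.44. Transcripts of this kind from Ccl6 summed to 0.719, 0.438 and 1.11 FPKM in controls and 3.50, 2.02 and 7.33 FPKM after irradiation, a log2 fold change of 2.24 ± 0.49 (SE, adjusted p = 0.00746 by limma) beside 4.52 for the mRNA. Those of Cxcl10 rose by 2.45 ± 0.68 (adjusted p = 0.0198), beside an mRNA at 2.66 that missed the threshold, and those of Ccl2 by 2.79 ± 0.98 (0.0455). Cxcl16 (1.75, 0.0957), Ccl5 (0.59, 0.425) and Ccl27a (-0.35, 0.628) did not pass. Reads of an mRNA and of a retained intron of the same gene overlap, so the tables are not independent.

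Genes that act with chemokines were read from lists. Of 7 chemokine-related genes with other names, 5 rose and 1 fell: Cmklr1, the chemerin receptor of macrophages, by 3.84 (limma adjusted p = 0.000165), the atypical receptor gene Ccrl2 by 3.47 (0.000524) and Gpr35 by 2.77 (0.00148), while Cklf fell by 1.07 (0.00615). Of 11 G protein subunits 7 rose and 1 fell, beside 42.4% and 20.9% of all tested genes, with a median log2 fold change of 0.54 beside 0.40. Gnaq was at 1.91, Gnai1 at 2.94 and Gnai3 at -0.83, and 3 subunits were higher under quantile or median-ratio scaling or without control replicate 1. Of 21 effectors that carry receptor signals to the cytoskeleton, 12 fell and 5 rose, with a median of -0.66, while 20.9% and 42.4% of all tested genes did. Coro1a, an actin regulator of lymphocytes, fell by 1.85, while the Rac activator gene Tiam1 rose by 1.46. Coro1a is also expressed by thymocytes, and the part of the fall in thymocyte markers, 8 of 8 lower, was not tested.

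Of 14 genes of receptor desensitisation, 7 rose and 4 fell, shares near the 42.4% and 20.9% of all tested genes, and the median was 0.75. The named genes were Rgs14 at -2.19 (limma adjusted p = 6.85e-05) and the receptor kinase and arrestin genes Grk3 at 1.98 (9.8e-05) and Arrb2 at 1.26 (0.000612). Without control replicates 1, 2 or 3 the number lower was 2, 2 and 1. Of 14 genes that display, cleave or bind chemokines, 9 rose and 2 fell, beside the same 42.4% and 20.9%, with a median of 1.24. The proteoglycan genes Sdc4 and Sdc1, whose sugar chains hold chemokines at the cell surface, rose by 2.69 and 3.28 (adjusted p = 6.3e-05 and 8.42e-05), and Hmgb1 fell by 2.21 (0.0002). Among 17 inducing cytokines and their receptors, 15 were tested, 9 rose and 3 fell, with a median of 1.42. Here too 42.4% of all tested genes rose, and the share that fell was near the 20.9% of all tested genes. The receptor genes Ltbr for lymphotoxin (2.96, 5.42e-05) and Il1r1 for interleukin 1 (2.65, 0.000113) rose, and the interferon gamma receptor gene Ifngr1 fell by 1.17 (0.00132).

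Outside the test, 11 members stayed under the mean of 0.5 FPKM, and their highest value in any library was 1.40 FPKM, of Cxcr1 in irradiated replicate 2. They were Ccl1, Ccl26, the Ccl27 models on scaffolds, Ccl27b, Ccl28, Cxcl15, Ccr10, Ccr1l1, Cxcr1 and Ackr2. Without overlap, Ccl1, Ccl28 and Ackr2 were higher in all irradiated libraries, Ackr2 with 0.214, 0.0429 and 0.106 FPKM in controls and 0.449, 0.925 and 0.433 FPKM after irradiation. Of the homing genes left out, 9 gene models were tested, 4 rose and 3 fell, beside 42.4% and 20.9% of all tested genes. Ccr9 fell by 5.23, Ccr4 by 2.17 and Cxcr4 by 1.35, while Cxcl12 rose by 2.52 and Ccr7 by 0.99. Ccl21a rose by 3.31 and 3.59 in its 2 models and, like Ccl21b, is uncertain as a separate measurement.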

How the data were processed

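The members and gene lists were chosen with earlier results of these data known. The authors deposited 1 FPKM value per library, and the same tables hold their log2 fold change, p-value and adjusted p-value. The submitters' processing notes name DESeq2 1.10.1. The sources used here do not give the aligner, the counting tool, the strand setting or the annotation. Of 104 member transcripts in the deposited mRNA table, 102 have the coordinates of GENCODE M21, on GRCm38. All lines of a gene repeat 1 set of values, so 1 value per gene was used. Noncoding transcripts were summed to genes.

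The design named a count test for counts and limma for other units. The deposited values are FPKM, so limma 3.58.1 (R 4.3.3) was fitted to log2(FPKM + 0.1) with an abundance trend and group as the only term, over the 14001 genes averaging at least 0.5 FPKM in the 6 libraries. Log2 fold changes are irradiated minus control, and they understate the change of low genes. Depth could only be estimated, and 1 fragment in 1 kb was worth about 0.0391 to 0.0456 FPKM, the commonest smallest value of a library. Sums and ratios were compared with exact permutation tests. The fit was tested on simulated data. No library was left out.

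Named by rule were, in each role group, the members with the 4 highest means in either group and the 3 smallest adjusted p, and in other lists the 3 smallest adjusted p. Other members were named after their values were seen. A member and a gene of another list stand in the counts but are not reported here by name. Ligand and receptor pairs were also chosen then. Alternatives were other scalings, pseudocounts and filters, limma without trend, a replicate block, leaving out each library and the authors' comparison.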

Additional observations from a re-analysis of the deposited data

How the results depend on the processing

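Of the members called higher, the number stayed within 25 to 36 when each library was left out and was 27 after median-ratio scaling, 33 with equal summed FPKM, 32 without a filter and 36 in the authors' deposited table. Quantile normalization gave 17 higher and 4 lower members, 14 ligands and 3 receptors higher, 4 receptors lower (2 CC receptors and 2 of the CXC, CX3C and XC receptors, of which 0 were higher), and 1 atypical receptor, 1 C or CX3C ligand, 1 Cxcr2 ligand, 3 G protein genes and 1 noncoding-table gene higher. It brought the log2 fold of summed receptors from 1.96 to 1.08. Under quantile normalization the sign turned for Ccl20 (-0.61), Ccl17 (-0.21), Ccr3 (-0.39), Ccr6 (-0.90), Cxcr6 (-0.40), Cx3cr1 (-1.02) and Cxcl11 (-0.75). In the authors' deposited table it turned for Ccr6 (-0.13) and Cxcr5 (0.064).

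Median-ratio scaling gave 2 Cxcr2 ligands, 1 C or CX3C ligand, 3 G protein genes and 3 migration effectors higher and 2 G protein genes lower. Equal summed FPKM gave 2 Cxcr3 ligands higher, and a pseudocount of 1 gave 2 Cxcr2 ligands. With at least 1 FPKM in 3 libraries, where fewer genes are tested, 1 Cxcr2 ligand, 1 receptor of the CXC, CX3C and XC classes and 1 noncoding-table gene were higher, and without a filter 5 noncoding-table genes were. The authors' deposited table gave 2 Cxcr3 ligands, 1 C or CX3C ligand, 4 G protein genes and 3 migration effectors higher.

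Leaving out each library in turn gave 2 to 4 Cxcr2 ligands, 0 to 3 Cxcr3 ligands, 1 to 2 C or CX3C ligands, 0 to 2 receptors of the CXC, CX3C and XC classes, 3 to 8 G protein genes and 1 to 3 noncoding-table genes higher, and 1 to 4 desensitisation genes lower. In these fits Ccl27a, at -0.003, ran from -0.17 to 0.085, and Cxcr5 from -0.56 to 0.49. The cause was not tested for any of these.

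Libraries with the same number were not paired by their deviations (r across genes of 0.060, -0.043 and 0.052 for numbers 1, 2 and 3, so none of these correlations passed 0.1). With the replicate number as a block, 32 members and 2 Cxcr3 ligands were higher. DESeq2 on counts was not run, since no counts were used here. Precision was limited by 3 libraries a group, by irradiated values that differed up to 34.6 times between libraries among the members called and, for the Cxcr2 ligands, by levels worth few fragments.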
